A study of Mus musculus with 4 samples.

Results

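The interferon-responding T cells described here are cells in which the summed UMIs (unique molecular identifiers, each standing for a captured transcript) of 5 interferon-stimulated genes, Ifit1, Ifit3, Rsad2, Usp18 and Isg15, reached 4 or more. Each also had 500 or more genes, at most 10% mitochondrial UMIs and no UMI of the B-cell gene Cd79a. The rule found 112 such cells in the Tfh sort, among 3154 that passed the cell filter and 3956 barcodes, and 190 in the IL-4 reporter sort, among 4225 and 7646. Together these were 302 of 11602 barcodes. They were compared, within their sort, with reference T cells that had 0 UMIs of the 5 genes and 1 or more UMIs of Cd3d, Cd3e or Cd3g (2195 and 2909 cells). Cells with such a CD3 UMI and 1 to 3 UMIs of the 5 genes formed an intermediate state (827 and 1066 cells). The cells were thus chosen by the measured UMIs of the 5 genes, which are not results.

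The Tfh sort (T follicular helper cells) was gated as TCRβ+ CD4+ CD44+ PD-1+ CXCR5+ from mice of the C57BL/6 strain. The IL-4 reporter sort was gated as TCRβ+ CD4+ CD44+ GFP+ from C57BL/6 4GET IL-4 Reporter mice, in which GFP marks cells that have transcribed Il4. All mice received 10 μg of Alternaria alternata extract with 25 μg of NP-OVA through the nose, the mediastinal lymph node was taken on day 7, and sorted cells were restimulated with PMA and ionomycin for 30 minutes. Each sort pooled 3 mice with hashtag antibodies in 1 lane of the 10x system. The Tfh libraries used version 2 chemistry and were read on a HiSeq, whereas those of the reporter sort used version 3 and a NovaSeq. Every mouse was immunized, and the labels name no interferon treatment. The mouse is the replicate (n = 3 per sort), with 39, 47 and 22 responding cells in the mice of the Tfh sort, 59, 48 and 75 in those of the reporter sort, and 4 and 8 cells without a mouse that stayed out of the tests. Strain, gate, chemistry and sequencer differ together between the sorts, so their parts in any difference between sorts cannot be told apart.

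Type I interferons bind the receptor chains encoded by Ifnar1 and Ifnar2, and the kinases JAK1 and TYK2 then activate a transcription factor complex that includes IRF9 and binds the interferon-stimulated response element in promoters. Interferon gamma uses Ifngr1 and Ifngr2 and acts at gamma-activated sites, so the sets of genes induced by the 2 families overlap. The induced genes encode RNA and DNA sensors, enzymes that block viral replication, GTPases that attack microbial vacuoles, and parts of the MHC class I pathway. T follicular helper cells guide B cells in germinal centres through IL-21, IL-4 and CD40 ligand.

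Promoter sequences are shown for 5 genes that were higher in the responding cells, picked because they held the letters of the response element. The search used GAAANNGAAA on both strands in the 250 bases before each gene's start (RefSeq, build GRCm38.p6). Capitals mark the matched letters, with the reverse complement where the match lies on the other strand, and each stretch lies outside its own gene. Of 17 genes that rose in both sorts once cells with myeloid transcripts were left out (described with the values), 13 had a window. A match was found in 4 of these, Cxcl10, Gbp7, Oas3 and Trim30a. The windows of Irf7, Xaf1, Isg20, Ifi35, Ifi47, Ifih1, Psme2, Rnf213 and Lgals3bp held none. Bst2 is a gene whose change differed between the sorts. Bst2 lies on the minus strand (chr8:71537532-71537651), and its capitals hold 2 overlapping matches, 130 and 124 bases before the start. Cxcl10 (chr5:92349020-92349139, minus strand) has its match 213 bases before the start. In Gbp7 (chr3:142530216-142530335, plus strand) the match is 53 bases before, in Oas3 (chr5:120777685-120777804, minus strand) 75 and in Trim30a (chr7:104465194-104465313, minus strand) 36.
Bst2: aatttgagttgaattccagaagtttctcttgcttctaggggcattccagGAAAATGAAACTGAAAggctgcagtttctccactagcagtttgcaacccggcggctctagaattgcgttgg
Cxcl10: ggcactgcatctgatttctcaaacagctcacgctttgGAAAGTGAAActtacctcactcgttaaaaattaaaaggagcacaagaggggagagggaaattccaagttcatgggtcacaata
Gbp7: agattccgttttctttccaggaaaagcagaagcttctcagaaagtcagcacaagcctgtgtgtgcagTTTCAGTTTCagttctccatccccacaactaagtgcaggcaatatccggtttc
Oas3: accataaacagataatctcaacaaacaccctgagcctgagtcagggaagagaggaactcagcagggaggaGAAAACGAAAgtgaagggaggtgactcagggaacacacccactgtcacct
Trim30a: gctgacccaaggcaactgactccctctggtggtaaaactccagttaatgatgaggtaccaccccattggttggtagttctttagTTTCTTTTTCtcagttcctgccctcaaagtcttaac

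The 5 choosing genes describe how the cells were reached. Isg15, which encodes a ubiquitin-like protein, gave 70.4% of their UMIs in the responding cells of the Tfh sort and 88.6% in the reporter sort. It was the sole source in 51 cells (45.5%) and 137 cells (72.1%). Ifit1, whose protein binds foreign RNA, was seen in 34.8% and 17.9% of the cells, and all 5 genes together in 3 and 0 cells. The median sum was 5 UMIs in both sorts, with 41 and 72 cells at the limit of 4 and 68 and 105 intermediate cells just under it at 3. Sums of 8 or more were found in 34 (30.4%) and 40 (21.1%).

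A CD3 UMI was present in 110 of the 112 and in 189 of the 190 cells. The summed level of 14 T-cell receptor complex genes spanned 11517 to 12172 CPM (counts scaled to a common library total) over the mice of the Tfh sort, a little under the 13515 to 13703 of their reference cells, and 8978 to 9995 CPM in the reporter sort against 8534 to 9410 in its reference cells. Cd4 was seen in 65.2% and 85.8% of the responding cells. The NK-cell gene Ncr1 and the dendritic cell genes Siglech and Clec9a had 0 UMIs in either set, which allows up to 2.68% and 1.58% of cells with a UMI. Another NK-cell gene, Klrb1c, was seen in 1 responding cell of the Tfh sort (0.893%, against 0.683% of reference cells) and in 5 of the reporter sort (2.63% against 0.584%). The dendritic cell gene Xcr1 was in 1 cell of each sort, Flt3 in 1 of the Tfh sort and Itgax in 1 of the reporter sort. Of the CD8 chains, Cd8a was seen in 1 cell of each sort, and Cd8b1 in 1 of the Tfh sort and 16 of the reporter sort (8.42%, against 6.67% of reference cells). The libraries shared 1 barcode, which was in 0 of the responding cells.

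Myeloid transcripts were concentrated in a few responding cells of the Tfh sort. In 5 of the 112, or 4.46%, 10 myeloid genes held 0.2% or more of the cell's UMIs, against 0.319% of reference cells; in the reporter sort it was 1 of 190, against 0.481%. These 5 cells had 6.59, 6.43, 2.57, 2.52 and 1.31% of their UMIs in the 10 genes, and the highest other responding cell had 0.0686%. Of these, 3 cells, 1 from each mouse, carried Ccl17 (22, 124 and 76 UMIs) and Ccl22 (35, 61 and 58), chemokine genes of mature dendritic cells, with Fscn1 and Il12b. Another held 405 UMIs of the macrophage gene Lyz2. All 5 also had CD3 UMIs (1 to 18). The limit of 0.2% was chosen after these cells were seen.

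Those 5 cells decided some results of the Tfh sort, so its values are given with and without them. With them, the dendritic cell genes summed to 1385 to 2386 CPM over the mice, the macrophage genes to 304 to 3485 and the B-cell genes to 3046 to 3915, against 191 to 204, 279 to 352 and 1008 to 1167 in reference cells. Without them the responding cells had 295 to 489, 204 to 277 and 934 to 1876. C1qa, C1qb, C1qc, Csf1r, Adgre1, Cd68, Cd14, Flt3, Batf3, Fscn1 and Ccl22 fell to 0 in responding cells once those cells were left out. Of these, Adgre1 and Cd14 were at 0 in reference cells as well. Itgax, Clec9a and Siglech were at 0 in responding cells with and without the 5 cells, and in reference cells. The 5 cells were left out for their myeloid UMIs, so falls of myeloid genes are partly set by that choice and are no separate test. Responding cells of the reporter sort were at 69.0 to 292 CPM for macrophage genes, 244 to 349 for dendritic cell genes and 274 to 660 for B-cell genes, beside 94.7 to 154, 198 to 273 and 353 to 516 in reference cells.

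Depth also moves with the choice of cells. Responding cells had a median of 4243.5 UMIs in the Tfh sort against 2614.0 in reference cells, and 11141.5 against 5819.0 in the reporter sort. The median mitochondrial share was slightly lower in them, 3.06% against 3.55% and 4.82% against 5.40%. A fit with the reference cells matched for depth within each mouse is therefore given where it moves a result. The member sums held 117476 to 269972 UMIs per mouse in the Tfh sort and 754189 to 1056895 in the reporter sort.

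Genes outside the choosing rule separated the responding cells from the reference cells in both sorts. At an edgeR adjusted p under 0.05, 159 of 7748 genes rose (2.05%) and 62 fell (0.8%) in the Tfh sort, together 2.85%. Without the 5 myeloid-transcript cells 88 rose (1.13%) and 53 fell (0.683%), together 1.82%, and with depth matched as well 75 rose (1.15%) and 5 fell (0.0765%), together 1.22%. Leaving out mouse 2 reduced the 221 calls of the Tfh sort to 144. The reporter sort had fewer calls: 36 of 9634 genes rose (0.374%) and 10 fell (0.104%), and 40 and 10 without the myeloid-transcript cells. Leaving out mouse 2 of the reporter sort reduced its calls to 5, leaving out mouse 3 gave 13 and leaving out mouse 1 gave 98, so that sort's count rests on which mice are in the fit. Levels of the responding mice above all reference mice were found for 8.26% of all tested genes in the Tfh sort and 8.45% in the reporter sort, and levels below all of them for 12.3% and 9.54%, which is the background for each statement on overlap that follows.

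Of 172 genes in 7 lists of interferon-stimulated genes, which did not hold the 5 choosing genes, 127 were tested in the Tfh sort, and 64 rose and 1 fell. Their median log2 change was 0.75, against -0.02 over all genes tested. Of those 127, 13 passed the low-count filter through the responding cells alone and had to be higher there. Of these 13, 10 rose, and they stay in the counts and medians of the single lists below. Among the other 114, 54 rose and the median was 0.62. Of the same genes 135 were tested in the reporter sort, where 15 rose and 0 fell by edgeR (19 and 0 by DESeq2; 55 higher and 6 lower at an unadjusted p under 0.05), with a median of 0.33 against 0.00 over all genes, and 58 of 125 rose and 2 fell in the Tfh sort without the myeloid-transcript cells.

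**Figure D1:**
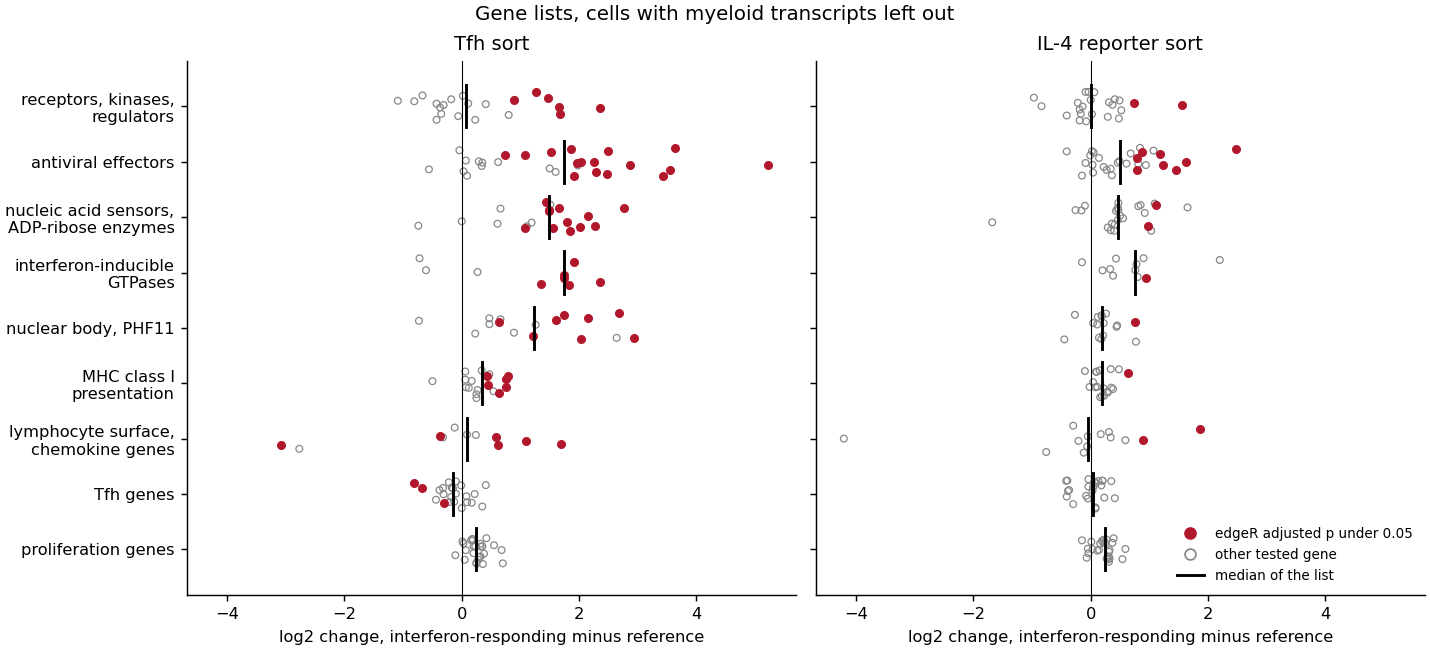
Log2 change of each tested gene of 9 lists, responding minus reference cells, in the Tfh sort (left) and the IL-4 reporter sort (right), with the myeloid-transcript cells left out; filled points passed edgeR at an adjusted p under 0.05 and the black bar is the list's median. In the Tfh sort the medians of the antiviral effectors, sensors and GTPases lie at 1.74, 1.49 and 1.74, and in the reporter sort at 0.49, 0.47 and 0.76. Those of the Tfh genes lie at -0.15 and 0.04. The median of the proliferation genes lies at 0.25 in both sorts, in the reporter sort above the 0.19 of the MHC class I and nuclear body lists.

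Of 22 tested receptors, kinases and regulators 6 rose in the Tfh sort, and in the reporter sort 2 of 23. Irf7, the factor that amplifies interferon production (chromosome 7, 141263183 to 141266499), stood at 131, 198 and 85.0 CPM in the responding cells of the 3 mice of the Tfh sort and at 28.9, 36.2 and 23.5 in their reference cells. Every responding sum was above every reference sum, and the log2 change was 2.27 ± 0.21 (SE, edgeR adjusted p = 4.2e-09). Reporter-sort levels were 37.1, 30.7 and 30.4 CPM against 11.3, 10.7 and 11.6, again without overlap, a log2 rise of 1.54 ± 0.21 (edgeR adjusted p = 0.0035).

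Irf9, which encodes the DNA-binding member of that complex, rose in the Tfh sort by 1.64 ± 0.26 (82.3, 82.1 and 102 CPM against 30.8, 30.0 and 19.0), and its 0.50 in the reporter sort did not pass. The receptor genes did not pass in either sort: the log2 changes were 0.18 and -0.23 for Ifnar1, 0.15 and -0.13 for Ifnar2, -0.36 and -0.08 for Ifngr1 and -0.69 and -0.85 for Ifngr2, each in the Tfh and then the reporter sort. Irf1 (0.29 and -0.20) and the feedback inhibitor gene Socs1 (-0.48 and -0.20) also did not pass.

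Of the 7 lists, the antiviral effectors gave the most rises in both sorts, 17 of 29 tested in the Tfh sort (median 1.87) and 7 of 29 in the reporter sort (median 0.46). In the Tfh sort that order can rest in part on the 10 rises that passed the low-count filter through the responding cells alone, which were not split by list. In the reporter sort 0 rises were of that kind. Rtp4, an interferon-induced receptor chaperone gene (chromosome 16, 23520219 to 23614222), had 92.0, 228 and 85.0 CPM in responding cells of the Tfh sort against 13.9, 13.9 and 5.74. The groups were far apart in every mouse, with a log2 rise of 3.56 ± 0.27 (edgeR adjusted p = 1.7e-11). It was low in the reporter sort, 13.5, 14.7 and 19.0 CPM against 3.37, 2.73 and 2.71, and rose by 2.43 ± 0.36 (edgeR adjusted p = 0.0052).

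Xaf1, a gene linked to cell death (chromosome 11, 72301461 to 72313733), stood at 87.2, 82.1 and 93.5 CPM against 16.5, 19.7 and 10.9 in the Tfh sort and at 27, 44.0 and 39.0 against 12.2, 11.2 and 12.2 in the reporter sort. Its rises were 2.37 and 1.62 on the log2 scale, without overlap in either sort. Isg20, which encodes an RNA exonuclease, rose by 2.13 (111, 194 and 68.0 CPM against 29.3, 33.6 and 29.3) and by 1.23 (50.6, 61.4 and 56.1 against 26.5, 21.3 and 23.4). Ifi27l2a, the most abundant gene of the list, was at 4650.1, 4878 and 3450 CPM against 2826, 2748 and 2643, and at 2636, 2158 and 2415 against 1651, 1245 and 1334. Its rises were small beside those of Rtp4 but did not overlap either, 0.66 ± 0.07 and 0.78 ± 0.11 (edgeR adjusted p = 2.1e-08 and 0.0035).

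Some effectors passed in 1 sort. Bst2, the gene of tetherin, which holds budding virus at the membrane, was at 136, 340 and 212 CPM against 57.5, 62.9 and 62.0 in the Tfh sort, a rise of 1.93 ± 0.20 (edgeR adjusted p = 3e-08). Reporter cells had 77.5, 92.1 and 91.2 against 61.4, 78.9 and 56.7, where the groups overlapped and the log2 change of 0.43 did not pass. Oas3, whose enzyme senses double-stranded RNA and activates RNase L, rose by 3.43 and 1.46, and Ifi47, an interferon-inducible GTPase gene held in this list, by 1.41 and 0.78. Trim30a rose by 1.96 in the Tfh sort, while in the reporter sort its 0.86 missed the threshold (edgeR adjusted p = 0.056) and its 0.87 without the myeloid-transcript cells passed (edgeR adjusted p = 0.047). Rnf213, a large ubiquitin ligase gene, rose by 2.38 in the Tfh sort although mouse 3 did not share the rise (53.3, 85.8 and 8.5 CPM against 9.39, 12.1 and 10.3), and by 1.17 in the reporter sort without overlap.

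**Figure D2:**
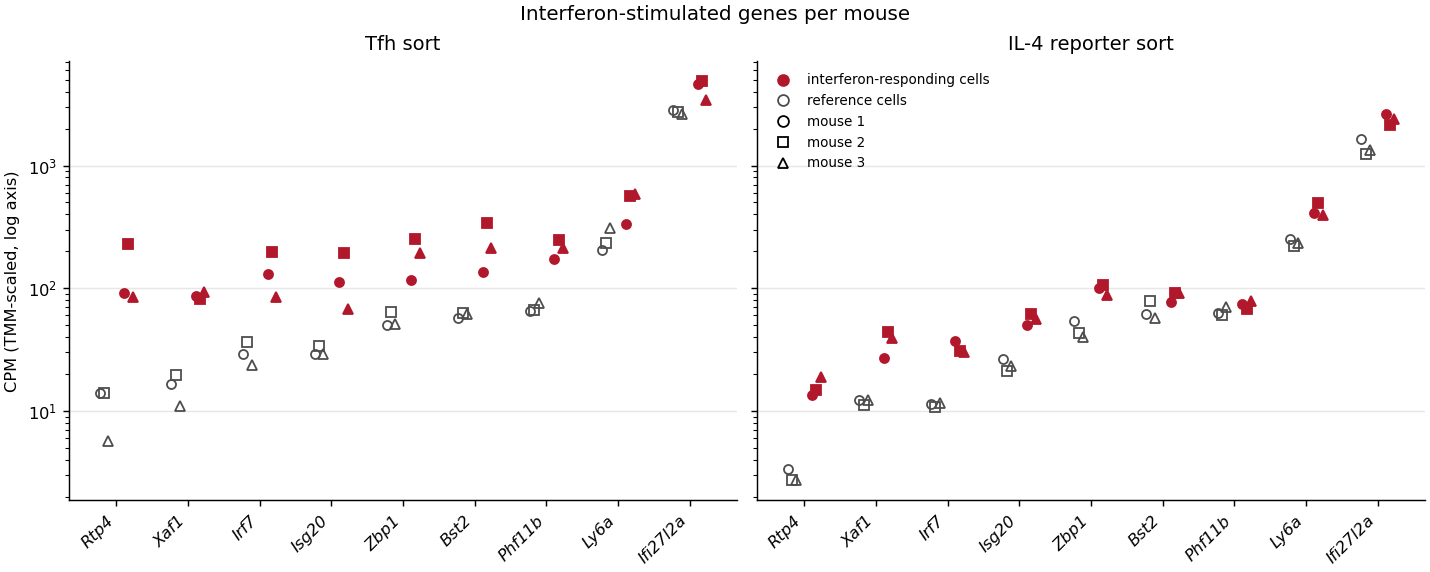
Levels of 9 interferon-stimulated genes per mouse in CPM scaled by TMM (log axis), filled for responding and open for reference cells, with 1 marker shape per mouse, in the Tfh sort (left) and the IL-4 reporter sort (right). In the Tfh sort every filled point of these 9 genes lies above all open points of its gene; in the reporter sort the points of Bst2 and of Phf11b overlap.

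Sensors of nucleic acids followed the effectors. Of 20 tested in the Tfh sort, 13 rose (median 1.42), in the reporter sort 2 of 24 (median 0.46). Zbp1, a sensor of left-handed nucleic acid that can start cell death, was at 116, 254 and 195 CPM against 50.3, 63.6 and 51.1 in the Tfh sort and at 100, 107 and 87.4 against 53.6, 43.0 and 40.0 in the reporter sort. No responding sum fell within the reference range, and the log2 rises were 1.77 ± 0.18 and 1.11 ± 0.12 (edgeR adjusted p = 3.2e-08 and 0.00057). Ifih1, the gene of the RNA sensor MDA5, rose by 1.47 in the Tfh sort (72.7, 116 and 153 CPM against 40.9, 35.1 and 43.7) and by 0.97 in the reporter sort (55.1, 54.7 and 80.8 against 35.0, 33.2 and 30.8). Ddx58, which encodes RIG-I, and its relative Dhx58 rose in the Tfh sort by 1.71 and 2.67, as did the DNA-sensor family members Mndal (1.31) and Ifi203 (1.5).

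Interferon-inducible GTPases act on membranes around intracellular microbes. Of 9 tested in the Tfh sort, 6 rose, Gbp2, Gbp4, Gbp7, Gbp9, Igtp and Irgm1, with log2 changes from 1.27 to 2.23. Igtp was at 82.3, 82.1 and 51.0 CPM against 25.5, 22.7 and 17.2, without overlap. Gbp2 was uneven, 24.2, 89.6 and 144 CPM against 26.3, 19.7 and 21.3, with mouse 1 inside the reference range, and it did not pass without mouse 2 or without mouse 3 (edgeR adjusted p = 0.081 and 0.096). In the reporter sort 1 of 11 rose, Gbp7 by 0.95 (47.2, 53.4 and 39.9 CPM against 22.1, 25.3 and 24.6). With depth matched 0 of 10 rose there.

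Genes of the nuclear body and the PHF11 family rose in 9 of 17 cases in the Tfh sort and in 0 of 16 in the reporter sort (2 were higher at an unadjusted p under 0.05 in edgeR, and DESeq2 called 1). Phf11b, a PHD-finger gene of the interferon response (chromosome 14, 59320964 to 59341388), stood at 174, 246 and 212 CPM against 65.0, 66.2 and 75.2 in the Tfh sort, a rise of 1.64 ± 0.17 without overlap (edgeR adjusted p = 2.1e-08). Its reporter-sort levels were 74.2, 68.1 and 78.9 CPM against 63.3, 60.6 and 70.7, ranges that overlap, and the 0.19 did not pass. Daxx, a histone chaperone gene of nuclear bodies, rose by 1.98 in the Tfh sort (92.0, 108 and 93.5 CPM against 27.4, 21.9 and 27), and Pml, the scaffold of those bodies, by 2.03.

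Of 19 tested genes of MHC class I presentation, 8 rose in the Tfh sort and 1 in the reporter sort, with medians of 0.38 and 0.19. The 8 became 6 without the myeloid-transcript cells and 4 with depth matched as well (median 0.41). Psme2, a subunit of the proteasome activator, was at 872, 877 and 807 CPM against 607, 561 and 615 in the Tfh sort and at 416, 454 and 484 against 292, 274 and 306 in the reporter sort. It rose without overlap in both, by 0.54 ± 0.08 and 0.63 ± 0.09. The immunoproteasome genes Psmb8 (0.52) and Psmb10 (0.76), the peptide transporter gene Tap1 (0.75) and the class Ib genes H2-T22 (0.70) and H2-T23 (0.62) rose in the Tfh sort. B2m, the light chain of class I molecules, rose there by 0.28 (edgeR adjusted p = 0.0014), but its 0.17 without the myeloid-transcript cells did not pass (edgeR adjusted p = 0.14).

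Lymphocyte surface and chemokine genes were mixed. Ly6a, the gene of the surface protein Sca-1 (chromosome 15, 74994877 to 74998031), stood at 334, 567 and 586 CPM against 204, 234 and 312 in the Tfh sort and at 411, 498 and 398 against 251, 221 and 233 in the reporter sort. Responding cells were above reference cells in every mouse, and the log2 rises were 1.01 ± 0.12 and 0.89 ± 0.10 (edgeR adjusted p = 8.9e-07 and 0.00089). Ms4a4b (0.53) and Ms4a6b (0.50), membrane proteins of T cells, rose in the Tfh sort. Cxcl10, a chemokine gene that draws CXCR3+ cells, rose in both sorts (1.57 and 1.85), yet its UMIs came from 9 of the 112 and 29 of the 190 cells, and 3 cells gave 62.5% and 55.0% of them. Ccl5, a chemokine gene of cytotoxic and myeloid cells, was higher by 2.09 with the 5 myeloid-transcript cells and lower by 3.08 without them (edgeR adjusted p = 1.6e-07 and 0.0009), so its direction was set by those cells.

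Of 23 Tfh genes, 0 rose and 3 fell in the Tfh sort (median -0.16), by edgeR and by DESeq2, where 0.8% of all genes fell, and 0 of 23 passed edgeR or DESeq2 in the reporter sort (1 higher and 5 lower at an unadjusted p under 0.05). With depth matched, 1 fell in the Tfh sort (median -0.02), and 2 rose in the reporter sort (median 0.22), Sostdc1 (1.44, edgeR adjusted p = 0.0074) and Izumo1r, the gene of folate receptor 4 (0.52, edgeR adjusted p = 0.013). Both rises passed with the myeloid-transcript cells left out as well (1.02 and 0.57). Cd40lg, the gene of CD40 ligand (X chromosome, 57212143 to 57224042), stood at 731, 817 and 569 CPM against 1178, 1222 and 1169. The groups were well apart, and it fell by 0.72 on the log2 scale (SE 0.09, edgeR adjusted p = 5.2e-07). With depth matched and the myeloid-transcript cells left out the fall was 0.40 (edgeR adjusted p = 0.04). Sostdc1, the gene of a secreted inhibitor of BMP and WNT signals (121, 78.4 and 68.0 CPM against 156, 191 and 168), and Tnfsf8, the gene of CD30 ligand, fell by 0.92 and 0.32, and neither passed at matched depth without the myeloid-transcript cells (edgeR adjusted p = 0.48 and 0.18). Bcl6, the lineage regulator (0.42 and 0.03), Cxcr5 (-0.11 and 0.08), Pdcd1, which encodes PD-1 (-0.47 and 0.09), and Il21 (-0.12 and 0.12) did not pass in the Tfh or reporter sort.

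Il4, the cytokine gene that defines the reporter, stood at 649, 829 and 688 CPM in responding cells of the Tfh sort against 903, 1003 and 951. It was lower in every mouse, by 0.40 (edgeR adjusted p = 0.0051). The fall was 0.32 without the myeloid-transcript cells (edgeR adjusted p = 0.041) and 0.22 with depth matched as well, which did not pass (edgeR adjusted p = 0.59), nor did it pass without mouse 1 or mouse 3. Il4 was low in both states of the reporter sort, 52.8, 56.1 and 35.2 CPM against 42.9, 46.8 and 46.9, and the 0.04 did not pass. A UMI of Il4 was nevertheless seen in more responding than reference cells, 64.3% against 50.3% and 34.7% against 24.1%, and in cells thinned to 2000 UMIs the shares were 48.6% against 45.8% and 9.09% against 9.26%.

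Among other type 2 genes of the Tfh sort, Areg, the gene of the growth factor amphiregulin, was at 673, 541 and 714 CPM against 495, 465 and 358 and rose by 0.49 (edgeR adjusted p = 0.012), or 0.75 with myeloid-transcript cells out and depth matched (edgeR adjusted p = 0.00034). Il13 rose by 1.35, but on few cells and 1 mouse: it was at 170, 679 and 8.5 CPM against 149, 164 and 47.1, an Il13 UMI was in 7 of the 112 cells, 3 of which gave 83.9% of the UMIs, and the change was -0.04 without mouse 2. In the reporter sort Il13 (-0.31) and Gata3, the type 2 regulator (0.31), did not pass. Il10, an anti-inflammatory cytokine gene (chromosome 1, 131019845 to 131024970), was at 374, 499 and 216 CPM against 260, 260 and 151 in the reporter sort. Each mouse was higher, although mouse 3 lay within the reference range of the others, and it rose by 0.67 (edgeR adjusted p = 0.0053). It lay at -0.32 with cycling cells left out and did not pass there.

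Tnfrsf4, the gene of the costimulatory receptor OX40 (chromosome 4, 156013595 to 156016613), stood at 592, 758 and 775 CPM against 474, 467 and 410 in the reporter sort, above all reference values, and rose by 0.66 (edgeR adjusted p = 0.0082). It did not pass without mouse 2 or mouse 3. Gzmb, a cytotoxic granule gene, rose there by 2.41, which came from 15 of the 190 cells, 3 of which gave 74.9% of its UMIs, and the change was -0.90 with very deep cells left out. Ccl4, a chemokine gene induced on activation, fell by 3.01 (19.1, 4.00 and 11.4 CPM against 103, 106 and 69.7). The share of cells with a Ccl4 UMI did not show that fall, at 6.84% of responding and 6.6% of reference cells, without thinning to equal depth. Lef1, a factor of naive and memory T cells, fell by 0.65 and did not pass without any 1 of the mice (edgeR adjusted p from 0.11 to 0.3), and Vim, a filament gene, fell by 0.36.

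Of 30 genes of acute stimulation, 1 rose and 6 fell in the Tfh sort, where 2.05% and 0.8% of all genes did, among them Fos (-0.41), Cd69 (-0.46) and Rel (-0.40); with myeloid-transcript cells left out and depth matched, 0 rose and 1 fell. Dusp2 (0.46) and Nfkbia (0.33) were the 2 of these genes that rose in the reporter sort, against 0.374% of all genes. With depth matched 1 of the 30 rose there. Over 24 alternative settings Dusp2 passed in 16 and Nfkbia in 10. Of 25 tested proliferation genes 0 passed edgeR or DESeq2 in either sort (5 and 3 were higher at an unadjusted p under 0.05), and their medians turned from 0.22 to -0.26 in the Tfh sort and from 0.24 to -0.25 in the reporter sort once myeloid-transcript cells were left out and depth was matched. With depth matched alone 2 of the 25 fell in the Tfh sort (median -0.50). Mki67, a marker of cycling cells, was seen in 21.4% of responding and 9.70% of reference cells of the Tfh sort and in 35.3% against 20.4% of the reporter sort, but in 6.67% against 6.00% and 18.7% against 13.8% after thinning.

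Genes that rose in both sorts were nearly all interferon-stimulated. There were 17, or 10.7% of the rises of the Tfh sort and 47.2% of those of the reporter sort, and 15 of them were in the 7 lists. The other two, Apoe and Ccrl2, were not among the shared rises once the myeloid-transcript cells were left out, when the 17 shared genes, 19.3% and 42.5% of the rises, all lay in the lists. These were Cxcl10, Gbp7, Ifi27l2a, Ifi35, Ifi47, Ifih1, Irf7, Isg20, Lgals3bp, Ly6a, Oas3, Psme2, Rnf213, Rtp4, Trim30a, Xaf1 and Zbp1. Of 87 genes that rose in the Tfh sort in that fit and were tested in the reporter sort, 78 had a change above 0 there. Over all genes tested in the reporter sort in that fit, 4831 of 9624 were above 0. With depth matched as well, 21 genes were shared (28.0% and 46.7% of the rises), 19 of them in the lists. Gbp7, Ifi35, Lgals3bp and Oas3 were not among them. The reporter calls depend on the mice. Of the 17 genes shared with all cells in, 0 passed edgeR after adjustment without mouse 2 of the reporter sort. All 17 were above 0 there, at an unadjusted edgeR p under 0.05. Without mouse 3, 5 passed and 16 were above 0, and without mouse 1, 16 passed and 17 were above 0. In the Tfh sort 14 to 17 passed without any 1 mouse. The 17 were picked by fits that hold the remaining mice, so their signs and unadjusted p are no separate test.

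The response element letters GAAANNGAAA were in 2.98% of all 32851 RefSeq promoter windows and in 3.36% of 6035 tested genes of the Tfh sort with a window. With myeloid-transcript cells left out, 21 of 69 genes that rose in the Tfh sort had them (30.4%), as did 2 of 35 that fell (5.71%). For the reporter sort it was 5 of 33 that rose (15.2%) and 0 of 5 that fell. The 21 genes of the Tfh sort included Bst2, Phf11b, Gbp2, Gbp7, Igtp, Irgm1, Oas3, Ddx60 and Slfn5. Among rises that were in no interferon list the letters were in 3 of 23 genes with a window in the Tfh sort (13.0%) and in 1 of 20 in the reporter sort (5.0%). Of 7423 tested genes of the reporter sort with a window, 3.15% had them. The gamma-activated site letters TTCNNNGAA were in 7.02% of all windows, in 9 of the 69 rises of the Tfh sort (13.0%) and in 2 of the 33 of the reporter sort (6.06%). Windows of Rtp4, Zbp1, Ly6a, Ifi27l2a and Sostdc1 were not used here.

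Cells with 4 to 7 UMIs of the choosing genes and those with 8 or more were each set against reference cells, without the myeloid-transcript cells. In the Tfh sort 63 genes rose in the upper class against reference cells and 15 fell, together 1.37% of 5707 tested, and 19 rose and 3 fell in the lower class (0.385%). The interferon-stimulated lists had a median of 1.33 in the upper class, beside -0.13 over all genes, and of 0.52 in the lower class, beside -0.02. For the reporter sort 24 rose and 10 fell in the upper class (0.375% of 9077) and 16 rose and 5 fell in the lower (0.231%), with interferon-list medians of 0.44 and 0.24. The UMIs of the choosing genes cut these classes, so their order is a description and no test between them is given.

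In the 2 classes of the Tfh sort Rtp4 was at 50.3, 115 and 32.0 CPM in the lower class and 277, 486 and 174 in the upper, a log2 difference of 2.22 without overlap. Phf11b was at 122, 74.7 and 176 CPM against 438, 628 and 324, a difference of 2.18, and in the lower class it did not pass against reference cells (0.64). The difference was 1.61 for Zbp1. These genes were picked after their values were seen, and in the reporter sort their differences were 0.34 for Rtp4, 0.61 for Phf11b and 0.22 for Zbp1. Over the interferon lists the median difference between the classes was 0.66 in the Tfh sort, beside -0.11 over all genes, and 0.19 in the reporter sort, beside -0.05.

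**Figure D3:**
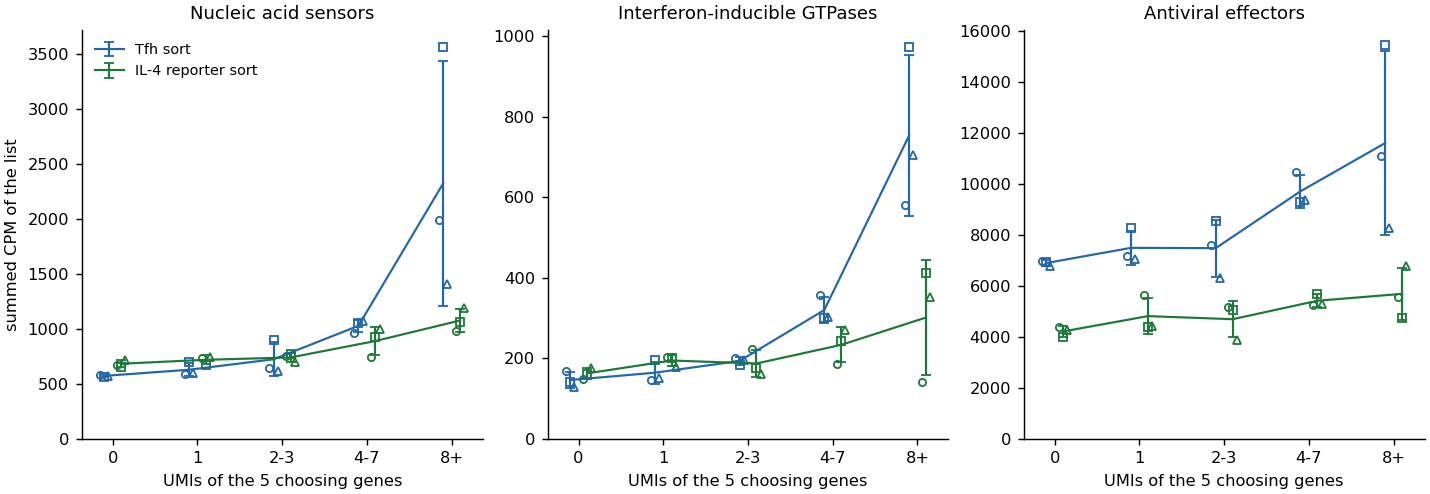
Summed CPM of the sensors, the interferon-inducible GTPases and the antiviral effectors (choosing genes not included) in cells with 0, 1, 2 to 3, 4 to 7 and 8 or more UMIs of the choosing genes, myeloid-transcript cells left out; points are mice, the line is the mean and bars are the SD of 3 mice. Sensors of the Tfh sort go from a mean of 571 CPM at 0 UMIs to 2322 at 8 or more, and those of the reporter sort from 682 to 1075.

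Across the whole range of choosing UMIs the sensors summed to 571 ± 9.88 CPM at 0, 627 ± 57.3 at 1, 722 ± 156 at 2 to 3, 1027 ± 56.4 at 4 to 7 and 2322 ± 1114 at 8 or more in the Tfh sort (mean ± SD, n = 3). The GTPases went from 146 ± 19.7 to 752 ± 200.3 and the antiviral effectors from 6891 ± 115 to 11600 ± 3618. The mice spread widely in the upper class, which held 8, 17 and 7 cells. At the threshold itself the step was small beside the spread, with sensors at 827 ± 198 CPM in cells with 3 UMIs and 1052 ± 269 in those with 4. Sensors of the reporter sort went from 682 ± 33.1 to 1075 ± 105, the GTPases from 162 ± 13.5 to 301 ± 143 and the effectors from 4208 ± 205 to 5684 ± 1015.

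In intermediate cells of the Tfh sort 13 of 7748 genes rose and 8 fell (0.271%), 2 of them, Rtp4 and Xaf1, among the 127 tested genes of the interferon lists, whose median was 0.07. Rtp4 was at 18.8, 44.6 and 13.0 CPM against 13.9, 13.9 and 5.74, with 2 of the 3 intermediate sums above the reference range, and rose by 1.17 ± 0.25 (edgeR adjusted p = 0.023). Xaf1 was at 30.8, 36.5 and 27.2 against 16.5, 19.7 and 10.9 without overlap, a rise of 0.97 (edgeR adjusted p = 0.022). At matched depth the changes of Rtp4 and Xaf1 were 1.44 and 1.04 (edgeR adjusted p = 0.069 and 0.3), and 0 genes of that comparison passed edgeR (164 were higher and 151 lower at an unadjusted p under 0.05), and DESeq2 called 0 of the 127 interferon genes with all reference cells. The 21 calls became 2 without mouse 1 and 0 without mouse 3. The rest of the rises included division and growth genes (Cdc20, Cenpa, Cks1b, Ube2c, Mif, Tpi1), and intermediate cells had a median of 3182.0 UMIs.

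In the reporter sort 2 genes rose in intermediate cells (0.0208%), neither of them in the interferon lists. Without mouse 2 the count was 0, and it was 7 and 10 without mouse 1 and mouse 3. Lgals7, a galectin gene, was at 781, 532 and 489 CPM against 367, 299 and 268, a rise of 0.94 (edgeR adjusted p = 0.0042). Akr1c18, which encodes a steroid-converting enzyme, was at 31.8, 101 and 79.8 CPM against 21.8, 32.1 and 31.2 and rose by 1.27 (edgeR adjusted p = 0.014). Akr1c18 passed at matched depth as well (1.26), with mouse 1 within the reference range, and Lgals7 did not (0.69, edgeR adjusted p = 0.066).

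Whether the change differed between the sorts was tested directly as the reporter change minus the Tfh change. Of 8408 genes, 40 passed (0.476%), 16 with a positive and 24 with a negative difference. Myeloid genes made up many of the negative ones, and 21 genes passed without the myeloid-transcript cells (0.252%; 15 positive and 6 negative, 0.072%) and 4 with depth matched as well (0.0541%, with 0.027% in each direction). Leaving out mouse 1 of the reporter sort gave 71 and leaving out mouse 3 of the Tfh sort gave 15. The 4 genes that passed with both changes were Bst2 (-1.68, edgeR adjusted p = 0.0059), Phf11b (-1.77, 0.00011), Sostdc1 (1.64, 0.021) and Tnfsf8 (0.82, 0.0056). With all cells the differences were -1.41 ± 0.27 for Bst2, -1.38 ± 0.23 for Phf11b, 1.36 for Sostdc1 and 0.72 for Tnfsf8. The first pair did not pass without mouse 2 of the Tfh sort (edgeR adjusted p = 0.27 and 0.059). For Irf7 (-0.63, edgeR adjusted p = 0.57), Rtp4 (-1.07, 0.49) and Zbp1 (-0.57, 0.51) the difference between sorts did not pass, which does not show that they responded alike.

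The share of T cells that met the rule is a description of that rule. It was 3.44, 3.68 and 3.23% of cells with a CD3 UMI in the mice of the Tfh sort and 4.80, 4.51 and 5.51% in those of the reporter sort, or 3.45 ± 0.226% and 4.94 ± 0.514% (mean ± SD, n = 3). After thinning each cell to 2000 UMIs, which left out 18.9% and 15.1% of the CD3+ cells as too shallow, the order turned, with 1.09, 2.04 and 1.6% against 0.441, 0.205 and 0.571%. Within a sort the share also went up with depth, from 1.28% in the shallowest of 4 equal groups of cells to 7.28% in the deepest in the Tfh sort and from 0.865% to 9.98% in the reporter sort. Among Cd79a+ cells, left out by the rule, 4 or more UMIs of the 5 genes were found in 9 of 762 (1.18%, 95% exact interval 0.541 to 2.23%) and 3 of 360 (0.833%, 0.172 to 2.42%). The Cd79a+ cells had median depths of 2451.5 and 5017.0 UMIs.

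**Figure D4:**
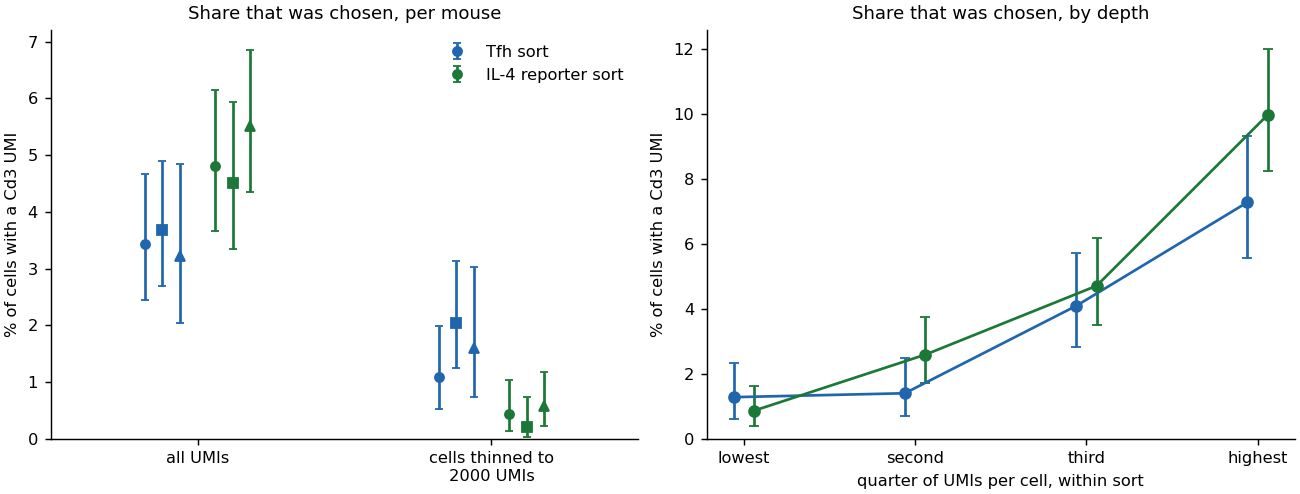
Percent of cells with a CD3 UMI that met the rule, per mouse with all UMIs and after thinning to 2000 UMIs (left, 1 marker per mouse) and by 4 equal groups of depth within each sort (right); bars are 95% exact binomial intervals. The reporter mice lie above the Tfh mice with all UMIs and below them after thinning, and the share is highest in the deepest group of both sorts.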

How the data were processed

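Raw UMI counts per gene and barcode were deposited by the authors for 2 sorts of mouse CD4 T cells, with hashtag counts per barcode; whether hashtag counts are molecules or reads is not given in the sources used here. Reads were handled with bcl2fastq (2.18.0.12, 2.20.0.422) and Cell Ranger (2.2.0) on mm10, a name of GRCm38, per the submitters' processing notes, but 1 header, that of the reporter counts, gives 3.0.2 for Cell Ranger. The annotation release is not given in the sources used here. Counts of the 67 duplicate symbols among 28692 features were summed.

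A cell's mouse was its top hashtag where that had 10 or more counts and 3 times the second, which removes doublets between mice but not within a mouse. UMIs were summed per mouse and state (5 or more cells each) and tested with edgeR 4.0.16 in R 4.3.3 (quasi-likelihood; TMM; genes kept by filterByExpr with min.count 10; mouse as block, Benjamini-Hochberg over all genes but the 5 choosing genes, threshold 0.05). The 3 states of a sort shared 1 fit of 9 sums with 4 residual degrees of freedom. The mouse pairs the states because each mouse gave every state. DESeq2 1.42.0 was another tool, scripts were tested on simulated data, and Python 3.11.15 did the rest. CPM of single genes use TMM-scaled totals, and CPM of list sums use plain totals. Depth matching drew reference cells within mouse and 5 depth bins. Intervals cover counting error only (95%, exact), and a count of 0 allows 3 counts.

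The rule, the gene lists and the comparisons were chosen with earlier results of these data known. Named genes were the 12 largest rises and 10 largest falls past the threshold with 20 CPM or more and the same direction in every mouse, up to 4 passing genes of each of 21 lists by smallest p, and a fixed set of receptors, regulators, cytokines and helper genes. Apoe, Ccrl2, Cdc20, Cenpa, Cks1b, Ube2c, Mif, Tpi1, Lgals7, Akr1c18, Crip1, Il22, Calca and Ccl1 and genes of the lists beyond that number were named after their values were seen, as were the alternatives that leave out cells with myeloid transcripts, keep sums of 8 or more, or thin the cells before testing.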

Additional observations from a re-analysis of the deposited data

Results flagged for a closer look

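Several genes are singled out because their change in responding cells differed between the sorts, by the test of that difference (edgeR adjusted p under 0.05, reporter change minus Tfh change, log2). The interferon-stimulated genes among them were Bst2 (-1.41), Phf11b (-1.38), Daxx (-1.48) and Irf8 (-3.45), all with the larger change in the Tfh sort, and Jak2 (1.26), which was at -0.67 in the Tfh sort and 0.49 in the reporter sort. Without the myeloid-transcript cells the difference of Irf8 was -2.12 and did not pass (edgeR adjusted p = 0.23). With depth matched alone that of Jak2 was 0.99 and did not pass (edgeR adjusted p = 0.2).

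Genes of helper T cells with a more positive change in the reporter sort were Sostdc1 (1.36), Tnfsf8 (0.72), Cd40lg (0.77), Fos (0.55), Dusp2 (0.75), Rgs16 (1.9), Gsn (1.88), and the TNF family genes Tnfrsf4 (0.7), Tnfrsf9 (1.61) and Tnfsf11 (1.21). Ccl4 (-3.34), Vim (-0.98) and Fabp5 (-2.19) were more negative there. Without the myeloid-transcript cells Ccl4 (-2.54), Vim (-0.47), Fabp5 (-0.72) and Rgs16 (1.79) did not pass (edgeR adjusted p = 0.085, 0.6, 0.71 and 0.061). With depth matched alone Sostdc1, Tnfsf8 and Vim passed, and the other genes of this paragraph did not (edgeR adjusted p from 0.092 for Dusp2 to 0.26 for Tnfrsf4).

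The genes Apol7c (-14.82), Ccl17 (-9.96), Fscn1 (-8.56), Cd63 (-7.43), Cxcl16 (-5.93), Tyrobp (-4.85), Ccl5 (-3.26), H2-Eb1 (-2.9), Ccr7 (-2.78), Cst3 (-2.7) and Cd74 (-2.27) also passed. The 5 cells of the Tfh sort with myeloid transcripts held 222 of 223 Ccl17 UMIs, 147 of 147 Fscn1 UMIs, 111 of 111 Cd63 UMIs and 518 of 571 Cst3 UMIs. Apol7c had 0 UMIs in responding cells of the reporter sort, so its fitted value depends on the prior count and is no bound. Without the myeloid-transcript cells Ccl5 (2.48), H2-Eb1 (-1.59), Ccr7 (-0.98), Cst3 (0.47) and Cd74 (-0.57) did not pass, and the others were too low to be tested.

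The choosing genes reached 4 or more UMIs also in 1.18% of the Cd79a+ cells of the Tfh sort and 0.833% of those of the reporter sort. The comparisons did not use these cells, and whether they also held CD3 UMIs was not tested.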

How the results depend on the processing

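In the Tfh sort the 221 calls became 141 without the myeloid-transcript cells, 80 when depth was matched as well, 105 with cells thinned to 2000 UMIs, 132 with only responding and reference sums in the fit, 359 with no filter on low counts, 141 without very deep cells, 100 with sums of 8 or more and matched depth, and 144 (without mouse 2) to 155 when a mouse was left out. The mouse pairs the states, and with no replicate block 214 genes were called. For the reporter sort the 46 calls became 74 at 3 or more UMIs of the choosing genes, 87 at 8 or more, 88 with DESeq2, 8 among Tfh-marked cells only, 76 without cells holding non-T transcripts, 144 without cycling cells, 136 without very deep cells, 223 at a mitochondrial limit of 20%, 266 with no low-count filter, 18 with no replicate block and 5 to 98 when a mouse was left out (98 without mouse 1, 5 without mouse 2, 13 without mouse 3).

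For intermediate cells of the Tfh sort the 21 calls became 2 with DESeq2, 64 with no low-count filter, 8 with no replicate block, 0 at matched depth and 0 to 29 without a mouse. For those of the reporter sort 2 became 51, 0 with no replicate block, and 0 to 10 without a mouse. The 40 genes that differed between the sorts became 21 without the myeloid-transcript cells, 4 with depth matched as well, 22 with depth matched alone, 134 with no low-count filter, 26 with no replicate block and 15 to 71 without a mouse. The share of 3.45% in the Tfh sort was 5.46% at 3 or more UMIs, 1.59% at 6 or more and 1.58% thinned. The 4.94% of the reporter sort was 7.55%, 2.33%, 4.06% at a mitochondrial limit of 20% and 0.406% thinned. The cause of these shifts was not tested, beyond the smaller number of cells or genes that an alternative itself keeps.

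Signs turned for a few named genes. For the Tfh sort Ccl5 went to -3.08 without the myeloid-transcript cells and -2.62 with depth matched as well, Crip1 to -0.12 and -0.35, Cst3 to -0.20 and -0.15, and Apoe to -0.40 in the first. With both changes Vim was -0.09 and Cd3d 0.01. Igfbp7 was -1.41 at 6 or more UMIs, -0.95 at 8 or more and -0.92 with depth matched too, and Areg was -0.19, -0.41 and -0.10 in the same order. Il13 was -0.04 at 8 or more with depth matched and -0.04 to 1.81 when a mouse was left out. Apoe was -8.08 at 6 or more, -8.19 at 8 or more, -2.28 without cycling cells and -2.63 without very deep cells, and Lyz2 -9.75, -9.64, -3.96 and -5.09, with -2.65 to 4.22 when a mouse was left out. Il5 was at -8.29 to 2.3 when a mouse was left out. Reporter-sort Gzmb was -0.90 and Il10 -0.20 without very deep cells, Il10 -0.32 and Vim 0.16 without cycling cells, Shtn1 -0.76 at 8 or more and -1.0 with depth matched too, and Apoe -2.18 to 2.06 when a mouse was left out.

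Over all alternatives, 1822 of 2119 values of 93 named genes in the Tfh sort kept their direction and their side of the threshold, as did 1066 of 1315 values of 55 genes in the reporter sort and 153 of 240 values of 18 genes for the difference between sorts. With 22 to 75 responding cells per mouse, depth limits what could be seen of genes with few UMIs.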

Other observations

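MHC class II genes were higher in responding cells of the Tfh sort. Cd74, the invariant chain gene, stood at 1691, 1967 and 1512 CPM against 306, 349 and 240.1 in reference cells, and rose by 2.53 on the log2 scale (edgeR adjusted p = 2.2e-20). The 5 myeloid-transcript cells held 751 of its 1057 UMIs, and without them the rise was 0.77 (edgeR adjusted p = 0.0027). H2-Ab1 rose by 2.19 with those cells and by 0.85 without them (edgeR adjusted p = 0.018), while the 0.52 of H2-Aa did not pass without them. B-cell genes summed to 934 to 1876 CPM over the mice without those cells, against 1008 to 1167 in reference cells, and their part in the class II result was not tested.

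A few T-cell effector genes were carried by very few responding cells. Of responding Tfh-sort cells, 3 gave 83.7% of the UMIs of Ccl1, a chemokine gene, which was seen in 9 cells. Il22, a cytokine gene of barrier defence, had 46 UMIs in 10 responding cells of the reporter sort, 3 of which gave 69.6% of them. An Il22 UMI was in 5.26% of responding and 0.653% of reference cells there, without thinning to equal depth. In the Tfh sort the shares went the other way, 0.893% and 1.91%. Calca, which encodes a neuropeptide, had 67 of its 83 UMIs in 1 cell of the reporter sort. Golga5, a Golgi protein gene, had 1 UMI in responding and 181 in reference cells of the Tfh sort, a ratio of levels of 14.8 (counting interval 2.63 to 588.6). Xcl1, a chemokine gene of cytotoxic cells, had 1 UMI against 304, a ratio of 24.9 (4.43 to 986.4). Both intervals take UMIs as independent, although several can come from 1 cell. An Xcl1 UMI was in 0.893% of responding and 2.19% of reference cells, shares much closer than the ratio. For Golga5 the shares were 0.893% and 8.29%.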
